A study of Rattus norvegicus with 82 samples.

Results

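Calcineurin is a phosphatase that calcium and calmodulin switch on. Its catalytic A subunits are encoded by Ppp3ca and Ppp3cb, and its calcium-binding regulatory B subunit by Ppp3r1. The active enzyme removes phosphates from the NFAT transcription factors, here Nfatc3 and Nfatc4, which then enter the nucleus. Rcan1 and Rcan2 encode regulators of calcineurin that bind and inhibit the enzyme. Rcan1 transcription can itself be driven by calcineurin and NFAT, which closes a feedback loop. In heart muscle the pathway is known for its part in hypertrophic growth, and the Rcan1 transcript is widely used as a readout of its activity. The 7 genes were listed by symbol and looked up in the array annotation, where all 7 of the 14218 genes with a probe set of a single symbol were found. Each gene is represented by its probe set with the highest mean over the 82 arrays, and all 7 passed the filter on dim probe sets that left 11320 genes for testing.

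The study measured heart RNA of male Wistar (Crl:Wi(Han)) rats on Affymetrix arrays after a single intravenous dose of vinblastine, vincristine or colchicine, drugs that bind tubulin and disturb microtubules. The question was what these tubulin binders do to gene expression in the heart. Every animal received 0.9% saline, alone in the control groups and as the vehicle in the others. Vinblastine was given at 0.5 or 3 mg/kg, vincristine at 0.1 or 1 mg/kg and colchicine at 0.2 or 2 mg/kg, and hearts were taken at 6 or 24 h. That makes 14 groups of 6 rats each, except that both groups on vincristine 0.1 mg/kg hold 5 arrays. The doses differ between the compounds, so their values are given side by side and were not tested against each other. Comparisons at one time share the same 6 saline arrays.

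Intensities are the deposited linear array values. The median intensity of an array lay between 57.6 and 63.3, and the number of arrays limits the precision. The cardiomyocyte markers were bright, with a mean of 23893 for Myh6 and 23708 for Tnnt2, and 7 of 8 listed markers passed the filter (Actc1 has no probe set of its own in the annotation). On 10 arrays the profile over all tested genes lay nearer to another group's median than to that of its own label, at a distance ratio over 1.3. In the lower-dose groups these are the arrays labelled vinblastine 0.5 mg/kg at 6 h replicate 6 and at 24 h replicate 5, vincristine 0.1 mg/kg at 24 h replicate 5, and colchicine 0.2 mg/kg at 6 h replicates 1 and 6 and at 24 h replicate 6. In the higher-dose groups they are vinblastine 3 mg/kg at 6 h replicate 1, vincristine 1 mg/kg at 6 h replicate 3, and colchicine 2 mg/kg at 6 h replicate 4 and at 24 h replicate 1. Of the lower-dose arrays, both vinblastine ones lay nearest to colchicine 2 mg/kg at 6 h, the colchicine one at 24 h to vincristine 1 mg/kg at 6 h, the vincristine one to colchicine 0.2 mg/kg at 6 h and the other 2 to saline at 24 h. Of the higher-dose arrays, the vinblastine one lay nearest to colchicine 2 mg/kg at 24 h, the vincristine one to saline at 24 h, and the colchicine ones to vinblastine 0.5 mg/kg at 24 h and to colchicine 0.2 mg/kg at 24 h. Whether any labels were exchanged was not tested. All arrays were kept under their labels, and results are given with and without these 10 where that changes them. The 10 were picked by their distance from their own group over the tested genes, so leaving them out tends to lower the spread by selection. Calls made only without them are descriptions. In bulk tissue, fewer cells of a type and less RNA per cell cannot be told apart.

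The promoters of the 2 inhibitor genes Rcan1 and Rcan2 are shown because their transcripts moved in opposite directions with vincristine and colchicine at 24 h. RefSeq windows of the GRCr8 assembly were matched for 5 of the 7 genes, and Nfatc3 and Nfatc4 were not matched. Each line gives the 250 bases before 1 RefSeq start on the gene's own strand. Rcan1 lies at chr11:45118237-45118486 and Rcan2 at chr9:24672190-24672439, both on the minus strand. Capitals mark the letters GGAAA on either strand (TTTCC on the other), the core that NFAT proteins recognise.
Rcan1: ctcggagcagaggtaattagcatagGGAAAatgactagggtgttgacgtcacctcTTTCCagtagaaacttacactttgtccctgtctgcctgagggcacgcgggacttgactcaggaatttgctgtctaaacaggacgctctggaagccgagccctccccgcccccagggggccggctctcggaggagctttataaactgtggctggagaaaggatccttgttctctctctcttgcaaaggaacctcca
Rcan2: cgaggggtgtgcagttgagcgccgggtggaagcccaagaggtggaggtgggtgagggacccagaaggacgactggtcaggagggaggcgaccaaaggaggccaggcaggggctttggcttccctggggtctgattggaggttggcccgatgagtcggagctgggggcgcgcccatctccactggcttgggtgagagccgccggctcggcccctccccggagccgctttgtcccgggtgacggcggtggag
The Rcan1 window holds 2 of the GGAAA letters, beginning 225 and 195 bases before the start, and 1 match to TGANTCA, the AP-1 motif, beginning 142 bases before it. The Rcan2 window holds neither motif. The Ppp3cb and Ppp3r1 windows each hold 1 GGAAA match and the Ppp3ca window none, and no TGANTCA match was found in these 3. Both strands were searched, and the motifs do not overlap in these windows. GGAAA is common: 56.9% of 33469 windows of the same length hold at least 1 match, against 6.34% for TGANTCA. A match describes letters and not a bound site, and other start sites of these genes are not covered.

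Rcan1 rose with all 3 compounds at the higher dose at 6 h, and stayed high at 24 h with vincristine and colchicine. In saline hearts its intensity at 6 h ran from 1428 through a median of 1669 to 2401, and at 24 h from 1572 through 1849 to 2344. After vinblastine 3 mg/kg at 6 h the lowest, median and highest arrays stood at 4913, 6812 and 9632, all above every saline array. The mean rose from 1846 ± 406 to 6956 ± 1604 (SD, n = 6 each), 3.74-fold on the scale of log2(intensity + 16) used for all fold changes (log2 change 1.90 ± 0.29 SE, limma adjusted p = 4.47e-06). Vincristine 1 mg/kg at 6 h gave 1770, 5458 and 6914, and the group overlapped saline through replicate 3, one of the 10 set-apart arrays. Its mean of 4771 ± 1900 was 2.39-fold above saline (log2 1.26 ± 0.29, limma adjusted p = 0.0122). The call was lost without replicate 4, the brightest array of that group (limma adjusted p = 0.0661). Colchicine 2 mg/kg at 6 h gave 1427, 5872 and 7401, and again a single set-apart array, replicate 4, reached down into the saline range while the other 5 started at 5350. The mean of 5537 ± 2183 was 2.71-fold above saline (log2 1.44 ± 0.29, limma adjusted p = 0.000545). Without the 10 arrays the log2 changes of Rcan1 at 6 h were 1.80, 1.52 and 1.79 for vinblastine, vincristine and colchicine. The vincristine and colchicine groups then also lay apart from saline, because their overlapping arrays are among those left out.

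At 24 h the 3 higher doses gave different pictures for Rcan1. Vincristine 1 mg/kg gave 4692, 5007 and 5569, a tight group with no overlap with saline. Its mean of 5091 ± 384 stood 2.64-fold above the saline mean of 1935 ± 327 (log2 1.40 ± 0.29, limma adjusted p = 0.000122). Colchicine 2 mg/kg gave 3975, 7112 and 7936, also clear of saline, and the lowest value belongs to replicate 1, a set-apart array. The mean of 6583 ± 1467 was 3.34-fold above saline (log2 1.74 ± 0.29, limma adjusted p = 9.59e-07). Vinblastine 3 mg/kg gave 2229, 2855 and 3871, which overlapped saline in its lower arrays. The mean of 2961 ± 736 did not pass the test (log2 0.59 ± 0.29, limma adjusted p = 0.215), but it did without the 10 set-apart arrays, none of which is in either group, where the same log2 change had a smaller standard error (0.59 ± 0.15, limma adjusted p = 0.00262). That smaller error comes with leaving out arrays picked for lying far from their own group.

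**Figure D1:**
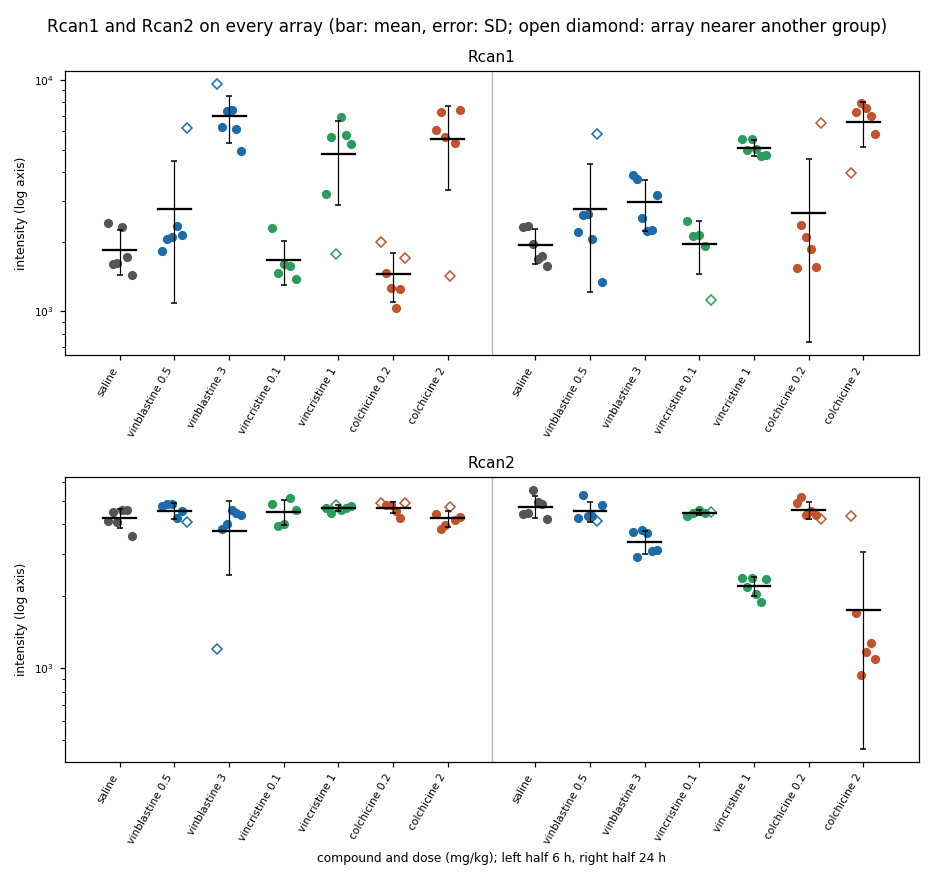
Intensity of Rcan1 (top) and Rcan2 (bottom) on each of the 82 arrays, on log axes, by compound and dose in mg/kg, with 6 h on the left and 24 h on the right; bars are group means, error bars SD, and open diamonds the 10 arrays nearer another group. Rcan1 is high in the higher-dose groups except vinblastine at 24 h. Rcan2 is low at 24 h with the higher doses of vincristine and colchicine, down to a mean of 1751 with colchicine. With the higher dose of vinblastine at 24 h Rcan2 lay below saline but was not called.

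At the lower doses no group mean of Rcan1 passed the test, yet 3 single arrays were as bright as the higher-dose hearts. Vinblastine 0.5 mg/kg at 6 h ran from 1813 through 2115 to 6202, and at 24 h from 1338 through 2399 to 5826. Colchicine 0.2 mg/kg ran from 1033 through 1362 to 1985 at 6 h and from 1531 through 1982 to 6511 at 24 h. The 3 bright arrays (6202, 5826 and 6511) are all among the 10 set apart and lay nearest to a higher-dose group. Whether their dose labels are right was not tested. Without these 10 the highest values of the groups that hold the bright arrays were 2336, 2636 and 2365. The 5 arrays of vincristine 0.1 mg/kg stood at 2285, 1468, 1601, 1572 and 1384 at 6 h and at 2450, 2120, 2132, 1917 and 1117 at 24 h, inside or close to the saline range. The higher dose stood above the lower in 5 of 6 comparisons within a compound and time. The log2 changes were 1.44, 1.41 and 1.79 at 6 h for vinblastine, vincristine and colchicine, and 1.42 and 1.48 at 24 h for vincristine and colchicine (limma adjusted p between 2.41e-05 and 0.00813). Vinblastine 3 against 0.5 mg/kg at 24 h gave 0.21 ± 0.29 (limma adjusted p = 0.809), and 0.45 ± 0.16 without the 10 arrays (limma adjusted p = 0.0476). The 6 h vinblastine call did not hold in a fit of those groups on their own or without the 6 arrays whose label ends in _2, with limma adjusted p up to 0.101.

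Ordered by group mean, Rcan1 was highest with vinblastine 3 mg/kg at 6 h (6956), followed by colchicine 2 mg/kg at 24 h (6583) and 6 h (5537) and vincristine 1 mg/kg at 24 h (5091) and 6 h (4771). After a gap came vinblastine 3 mg/kg at 24 h (2961), the groups pulled up by single arrays (2776, 2773 and 2653), vincristine 0.1 mg/kg at 24 h (1947), saline at 24 h and 6 h (1935 and 1846), vincristine 0.1 mg/kg at 6 h (1662) and colchicine 0.2 mg/kg at 6 h (1447). The ranges of every pair of neighbours in this order overlapped.

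Rcan2, the second inhibitor, did not follow Rcan1: it was near the saline level at 6 h and fell at 24 h. In saline its intensity ran from 3571 through 4294 to 4574 at 6 h and from 4207 through 4643 to 5511 at 24 h. Vincristine 1 mg/kg at 24 h gave 1886, 2271 and 2380, so that every array lay below every saline array. The mean of 2203 ± 207 against 4721 ± 477 is a 2.13-fold fall (log2 change -1.09 ± 0.18, limma adjusted p = 1.55e-06). Colchicine 2 mg/kg at 24 h gave 935, 1226 and 4329, where the top value is the set-apart replicate 1 and the other 5 arrays ended at 1706. The mean of 1751 ± 1289 is a 3.11-fold fall (log2 change -1.64 ± 0.18, limma adjusted p = 3.14e-11). Without the 10 arrays the fall was 3.85-fold (limma adjusted p = 1.97e-29). The groups then did not overlap, because replicate 1, the only overlapping colchicine array, is among those left out. Vinblastine 3 mg/kg at 24 h gave 2922, 3385 and 3758, below all saline arrays, yet the change of -0.49 ± 0.18 missed the threshold (limma adjusted p = 0.0681). It passed without the 10 arrays (limma adjusted p = 6.68e-06), and also with array weights, the mean of both probe sets, the 6 arrays ending in _2 left out, or a fit of the 2 groups alone.

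At 6 h the Rcan2 means of the higher-dose groups were 3725 ± 1267 with vinblastine, 4639 ± 132 with vincristine and 4213 ± 321 with colchicine, beside 4225 ± 388 in saline. None passed the test (log2 changes -0.30, 0.14 and 0.00). The wide vinblastine spread comes from the set-apart replicate 1, which read 1203 while the other 5 arrays lay between 3806 and 4549. The lower-dose groups had means between 4452 and 4674 at both times, and none was called. The higher dose lay below the lower at 24 h with vincristine (log2 -1.01 ± 0.19, limma adjusted p = 2.68e-05) and colchicine (-1.60 ± 0.18, limma adjusted p = 1.07e-10), while vinblastine gave -0.42 ± 0.18 (limma adjusted p = 0.176) although its 2 dose groups did not overlap, as was so for 3.05% of all genes. The second Rcan2 probe set, 1374235_at, gave log2 differences of -0.57, -1.03 and -1.29 at 24 h for vinblastine, vincristine and colchicine at the higher doses, against -0.49, -1.09 and -1.64 for the one used, 1389066_at. Rcan1 has a single probe set, 1388686_at, on chromosome 11, so its transcripts from different starts could not be told apart.

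The order of Rcan2 means ran from colchicine 2 mg/kg (1751) through vincristine 1 mg/kg (2203) to vinblastine 3 mg/kg (3368) at 24 h, then vinblastine 3 mg/kg at 6 h (3725), with the other 10 groups between 4213 and 4721. Colchicine and vincristine overlapped through 1 colchicine array, and vincristine and vinblastine at 24 h did not overlap, at doses that differ. Array by array, Rcan1 varied at 6 h while Rcan2 stayed between 3571 and 5137, except on the set-apart vinblastine array at 1203. At 24 h the arrays with most Rcan1 were those with least Rcan2, apart from 3 set-apart arrays. Over all 82 arrays the correlation of their log2 levels was -0.55, and within groups it was -0.28. These values describe arrays that share the treatment groups. They include the 10 set-apart arrays and were not computed without them.

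**Figure D2:**
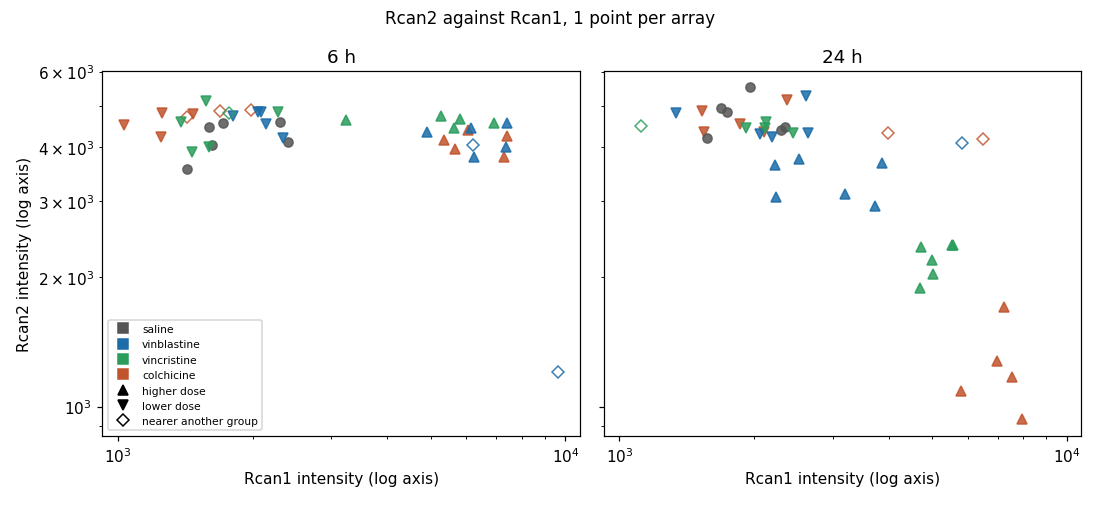
Intensity of Rcan2 against Rcan1 on log axes, 1 point per array, at 6 h (left) and 24 h (right); colour gives the compound, upward and downward triangles the higher and lower dose, circles saline and open diamonds the 10 arrays nearer another group. At 6 h the higher-dose arrays lie to the right at the saline level of Rcan2, except 1 set-apart vinblastine array at 1203, and at 24 h those of vincristine and colchicine lie to the right and below.

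The catalytic subunits moved far less than the inhibitors. Ppp3cb, encoding the beta catalytic subunit, was lower at 24 h. Saline at 24 h gave 962, 1098 and 1166, and vincristine 1 mg/kg gave 803, 810 and 956, just clear of the saline range. The mean fell from 1080 ± 82.6 to 841 ± 60.8 (log2 -0.35 ± 0.08, limma adjusted p = 0.000237). Colchicine 2 mg/kg gave 709, 815 and 1034 and overlapped saline through 2 arrays, the set-apart replicate 1 and replicate 2. Its mean was 847 ± 140 (log2 -0.36 ± 0.08, limma adjusted p = 8.89e-05). Vinblastine 3 mg/kg gave 809, 886 and 1143, a mean of 931 ± 124 that missed the threshold (log2 -0.22 ± 0.08, limma adjusted p = 0.0588) and passed it without the 10 arrays (limma adjusted p = 0.0341). The 2 other Ppp3cb probe sets gave log2 differences of -0.36 and -0.22, -0.45 and -0.47, and -0.28 and -0.35 in these 3 comparisons, the same sign as the one used.

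At 6 h Ppp3cb did not pass the test with any compound, with means of 990, 1020 and 928 at the higher doses beside 931 ± 105 in saline. The 5 arrays of vincristine 0.1 mg/kg at 24 h read 956, 949, 861, 870 and 947, all below saline, as for 0.875% of all genes in that comparison, but the change was not called (log2 -0.23, limma adjusted p = 0.9993). Between doses, colchicine 2 mg/kg lay below 0.2 mg/kg at 24 h (log2 -0.26 ± 0.08, limma adjusted p = 0.00405), a call that a fit of these 2 groups alone did not make (limma adjusted p = 0.0657). Saline hearts themselves read 0.22 ± 0.08 higher at 24 h than at 6 h on the log2 scale, which was not called (limma adjusted p = 0.249).

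Ppp3ca, encoding the alpha catalytic subunit, was called in none of the comparisons. Its group means lay between 782 ± 87.0 with colchicine 2 mg/kg at 24 h and 912 ± 100 with vincristine 0.1 mg/kg at 6 h, and single arrays ran from 676 to 1120. The 95% intervals of the 6 higher-dose changes lay between -0.37 and 0.22 on the log2 scale. The change furthest from 0 was that of colchicine 2 mg/kg at 24 h (log2 -0.18 ± 0.09, limma adjusted p = 0.109).

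Ppp3r1, the regulatory subunit, was higher after colchicine 2 mg/kg at 24 h. Saline read 925, 1048 and 1095, and colchicine 1085, 1284 and 1578, with overlap only through the set-apart replicate 1. The mean rose from 1027 ± 67.4 to 1314 ± 192, 1.27-fold (log2 0.34 ± 0.10, limma adjusted p = 0.00436). Against colchicine 0.2 mg/kg (938, 1076 and 1202) the log2 change was 0.29 ± 0.10 (limma adjusted p = 0.0177). That second call was lost in 4 of 24 alternative analyses, with adjusted p up to 0.0835: with the mean of all probe sets, and without replicate 3 of colchicine 0.2 mg/kg or replicate 2 or 4 of 2 mg/kg. Vincristine and vinblastine at the higher dose and 24 h gave means of 1137 ± 96.7 and 1131 ± 163, and neither passed the test. Vinblastine 3 mg/kg at 6 h read 937, 1063 and 2049, and the top array is the set-apart replicate 1. The log2 change there was 0.26 ± 0.10 (limma adjusted p = 0.0593) with that array and 0.09 ± 0.09 without the 10. The other Ppp3r1 probe sets gave 0.36 and 0.13 for colchicine at 24 h beside 0.34 for the one used, 1372982_at.

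For Nfatc3, an NFAT factor known for its part in hypertrophy of the heart, no change at 6 h passed the test with all arrays, and 3 did without the 10 set-apart arrays. Saline at 6 h read 296, 333 and 362. Vinblastine 3 mg/kg read 248, 277 and 332, vincristine 1 mg/kg 230, 299 and 344, and colchicine 2 mg/kg 229, 262 and 391. The highest array of each is a set-apart one, and all 3 groups overlapped saline. The log2 changes were -0.23, -0.17 and -0.26, none past the threshold (limma adjusted p = 0.0578, 0.316 and 0.0581). Without the 10 arrays they were -0.27, -0.21 and -0.36, all past it (limma adjusted p = 0.00264, 0.0335 and 5.64e-05). With all arrays, colchicine 2 mg/kg at 6 h was lower than 0.2 mg/kg (278 ± 58.7 against 354 ± 24.8, log2 -0.35 ± 0.09, limma adjusted p = 0.00725).

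At 24 h Nfatc3 fell with colchicine 2 mg/kg alone among the higher doses. Saline read 344, 357 and 391 and colchicine 272, 278 and 374, where the top array is again the set-apart replicate 1. The mean fell from 361 ± 16.2 to 302 ± 42.7 (log2 -0.25 ± 0.09, limma adjusted p = 0.0173). Without the 10 arrays the 2 groups did not overlap, because the only overlapping colchicine array, replicate 1, was left out. Vincristine 1 mg/kg had a mean of 343 ± 21.4 and vinblastine 3 mg/kg one of 386 ± 51.6, and neither was called. Whether the compounds differ was not tested. The lower-dose groups had means between 342 and 358 at both times, and the set-apart arrays of vinblastine 0.5 mg/kg were low (264 at each time), as was that of colchicine 0.2 mg/kg at 24 h (282).

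Nfatc4, another calcineurin-dependent NFAT factor, was called in none of the comparisons with all arrays. Its group means ran from 125 ± 9.69 with vinblastine 0.5 mg/kg at 24 h to 146 ± 10.2 with colchicine 2 mg/kg at 24 h, beside 139 ± 11.8 and 135 ± 9.99 in saline at 6 and 24 h. All groups overlapped their saline group. The 95% intervals of the 6 higher-dose changes lay between -0.15 and 0.20 on the log2 scale. Without the 10 arrays colchicine 2 mg/kg at 24 h passed the threshold with a small change of 0.13 ± 0.05 (limma adjusted p = 0.0325). With all arrays the other Nfatc4 probe set gave a log2 difference of 0.02 in that comparison, beside 0.10 for the one used. At the higher doses of vinblastine and vincristine the 2 probe sets differed in sign at both times.

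**Figure D3:**
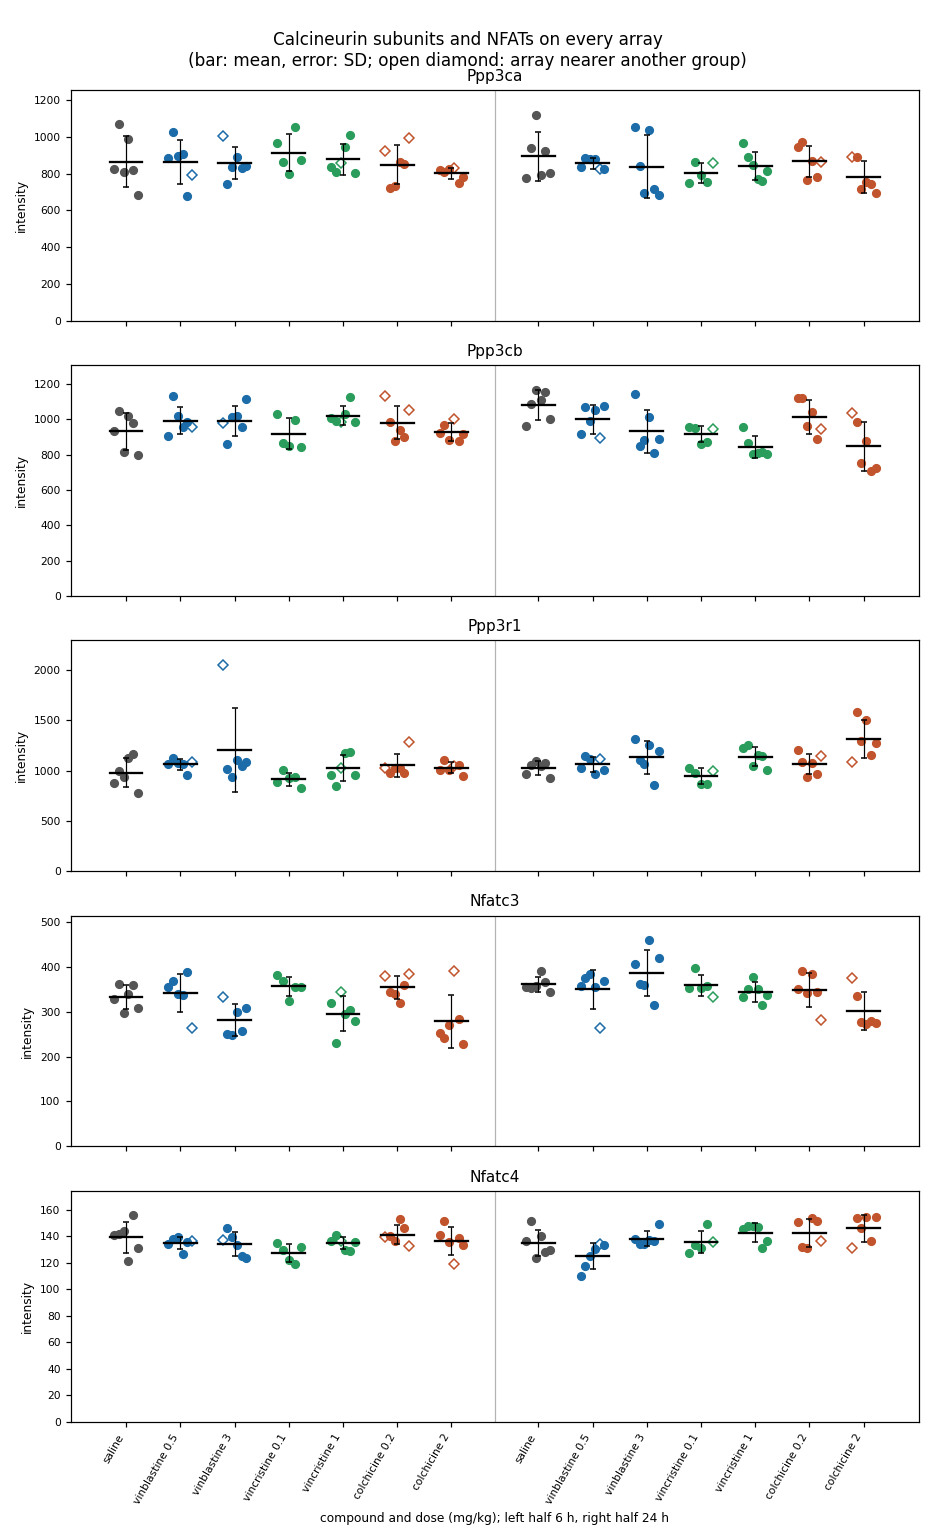
Intensity of Ppp3ca, Ppp3cb, Ppp3r1, Nfatc3 and Nfatc4 on each array, on linear axes from 0, by compound and dose in mg/kg, with 6 h on the left and 24 h on the right; bars are group means, error bars SD and open diamonds the 10 arrays nearer another group. The group means of Ppp3ca lie between 782 and 912, and the array of Ppp3r1 at 2049 is the set-apart vinblastine 3 mg/kg array.

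Counted over the 7 genes, 1 was higher and none lower with each compound at the higher dose at 6 h, in every case Rcan1. Over all genes tested, 23.3% were called with vinblastine (15.7% higher and 7.67% lower), 3.3% with vincristine (2.05% and 1.25%) and 9.27% with colchicine (4.89% and 4.37%). The groups did not overlap for 1 of the 7 with vinblastine, against 7.13% of all genes, and for none with vincristine and colchicine, against 1.11% and 1.3%. At 24 h no gene of the 7 was called with vinblastine 3 mg/kg, where limma called 9.58% of all genes (5.29% higher and 4.28% lower) and where 3 of the 7 (Rcan1, Rcan2 and Ppp3cb) had an unadjusted p under 0.05, as did 2523 of the 11320 genes tested. There 1 of the 7, Rcan2, did not overlap saline, against 6.3% of all genes. With vincristine 1 mg/kg 1 was higher and 2 lower (12% and 18.4% of all genes), and 3 did not overlap saline, against 20.1% of all genes. With colchicine 2 mg/kg 2 were higher and 3 lower (19.3% and 25.3% of all genes), and 1, Rcan1, did not overlap saline, against 8.6%. The totals of 3 of 7 and 5 of 7 stand beside 30.4% and 44.6% of all genes called in those comparisons, so the counts themselves set nothing apart about these genes. The median log2 change of the 7 was -0.07 with vincristine and -0.18 with colchicine at 24 h, against -0.01 and 0.00 over all genes.

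No gene of the 7 was called with a lower dose against saline. Over all genes limma called 0.0353%, 0% and 0.274% at 6 h for vinblastine, vincristine and colchicine, and 0% in each at 24 h. At an unadjusted p under 0.05, 1 of the 7 passed with vincristine 0.1 mg/kg at each time, beside 441 of 11320 genes at 6 h and 316 at 24 h. None of the 7 did so with vinblastine (591 and 227 of all genes) or colchicine (757 and 289). Between the doses of a compound 10 calls were made in 6 comparisons. At 6 h they were 1 with vinblastine, 1 with vincristine and 2 with colchicine, against 8.52%, 2.81% and 9.25% of all genes. At 24 h they were 0, 2 and 4, against 5.49%, 23.9% and 41.4%.

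**Figure D4:**
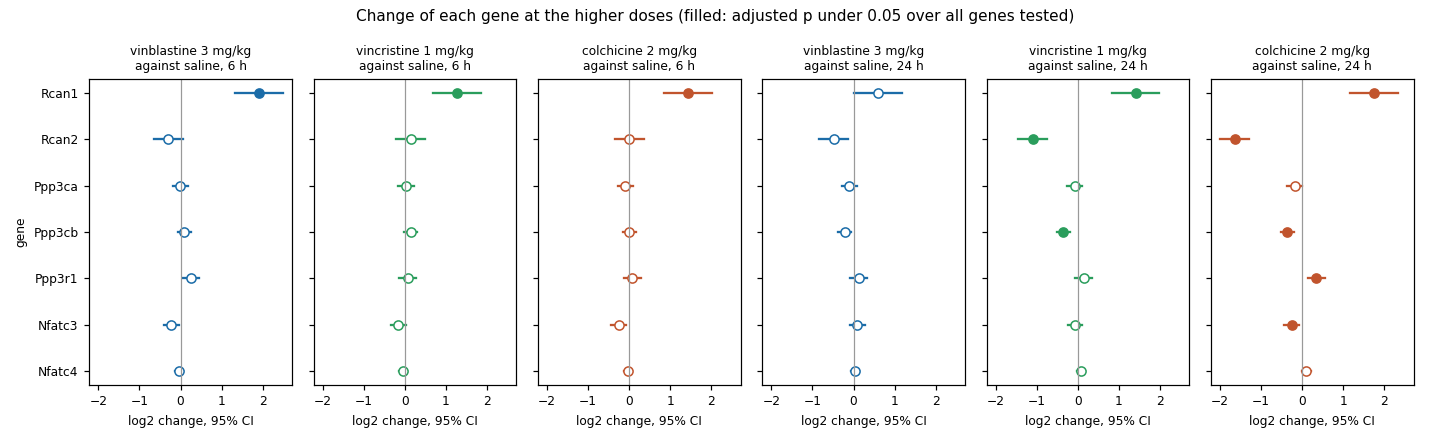
Log2 change of each of the 7 genes at the higher dose of each compound against saline at the same time, with 95% confidence intervals from the limma fit over all 82 arrays; filled points have an adjusted p under 0.05 over all genes tested. Rcan1 is filled in 5 of the 6 panels, Rcan2 and Ppp3cb on the low side with vincristine and colchicine at 24 h, and Ppp3r1 and Nfatc3 with colchicine at 24 h.

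The change against saline at 24 h was set against that at 6 h within each compound. Rcan2 moved down with time after vincristine 1 mg/kg (24 h change minus 6 h change -1.23 ± 0.25 on the log2 scale, limma adjusted p = 0.000597) and after colchicine 2 mg/kg (-1.64 ± 0.25, limma adjusted p = 8.91e-06). Ppp3cb did the same, at -0.49 ± 0.11 (limma adjusted p = 0.00138) and -0.36 ± 0.11 (limma adjusted p = 0.0136). The Rcan1 change after vinblastine 3 mg/kg was smaller at 24 h than at 6 h (-1.31 ± 0.41, limma adjusted p = 0.0498), at the edge of the threshold: it was lost in 25 of 36 alternative analyses, with adjusted p up to 0.123, and kept its sign in all 36. For vincristine and colchicine the Rcan1 difference was 0.14 ± 0.41 and 0.30 ± 0.41 and was not called. Of the 7 genes, 1, 2 and 2 were called with vinblastine, vincristine and colchicine, against 4.43%, 12.3% and 18.9% of all genes. At the lower doses limma called none of the 7, also at an unadjusted p under 0.05, beside 0%, 0% and 0.0265% of all genes. Saline hearts at 24 h against 6 h gave no call among the 7 and 0.00883% among all genes, and 1 of the 7 (Ppp3cb) had an unadjusted p under 0.05.

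Markers of other cells moved in the same hearts. Of 5 listed neutrophil markers 3 passed the filter (S100a8, S100a9 and Lcn2), and at the higher doses at 6 h 3, 1 and 3 of these were called higher with vinblastine, vincristine and colchicine, and 0, 3 and 3 at 24 h. Intensity was also summed over these 3 and Csf3r. At 6 h the sum ran from 257 to 371 in saline and from 1354 to 8110 with vinblastine 3 mg/kg. It ran from 266 to 1443 with vincristine 1 mg/kg and from 287 to 1678 with colchicine 2 mg/kg. At 24 h it ran from 247 to 368 in saline, from 414 to 678, from 1128 to 2129 and from 396 to 7388. In each higher-dose group where Rcan1 was called higher, at least 1 of the 3 neutrophil markers was also called higher. With vinblastine at 24 h neither Rcan1 nor these markers were called, though every summed value lay above every saline one. The part of neutrophils in the result was not tested. Csf3r did not pass the filter and Mpo was not in the annotation with a probe set of its own. Of 5 macrophage markers 2 were lower with each compound at 6 h, and at 24 h 2, 3 and 2 were higher and 0, 0 and 1 lower, and no T lymphocyte marker was called. Of 7 cardiomyocyte markers none was called at 6 h, none at 24 h with vinblastine, 1 was lower with vincristine and 3 with colchicine. Of 5 fibroblast markers none was called at 6 h. At 24 h 2 were lower and none higher with vincristine, 4 lower and 1 higher with colchicine, and 1 was higher with vinblastine. The vincristine and colchicine comparisons, in which Rcan2 and Ppp3cb fell, also had lower calls among cardiomyocyte, endothelial and smooth muscle markers. Of 4 endothelial markers 1, 0 and 0 were higher and 1, 1 and 1 lower at 6 h, and 1, 1 and 3 higher with 0, 1 and 1 lower at 24 h. Of 5 smooth muscle and pericyte markers none was called at 6 h or with vinblastine at 24 h, 1 was lower with vincristine, and 1 was higher and 1 lower with colchicine. Over all genes the shares called higher and lower at 6 h were 15.7% and 7.67% with vinblastine, 2.05% and 1.25% with vincristine and 4.89% and 4.37% with colchicine. At 24 h these shares were 5.29% and 4.28%, 12% and 18.4%, and 19.3% and 25.3%. The marker counts are to be read against them. The part of these lists in the results was not tested either.

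Around these 7 genes, 7 lists of pathway genes with 61 members were followed, of which 49 were tested, 6 were absent from the annotation and 6 did not pass the filter. At the higher doses at 6 h 10 of the 49 were called higher and 3 lower with vinblastine, 5 and 1 with vincristine and 6 and 1 with colchicine. Over all genes the shares higher and lower were 15.7% and 7.67%, 2.05% and 1.25%, and 4.89% and 4.37%. At 24 h the counts were 4 and 5, 7 and 17, and 14 and 17, beside 5.29% and 4.28%, 12% and 18.4%, and 19.3% and 25.3% of all genes. At 24 h lower calls clearly outnumbered higher ones with vincristine only, and the counts lay close together with vinblastine and colchicine. The lists were chosen with earlier results of these data known, so these counts are descriptions. Without the 10 arrays the counts at 6 h were 11 and 4, 7 and 2, and 11 and 4, beside 10.3% and 5.52%, 7.2% and 5.12%, and 9.47% and 9.87% of all genes. At 24 h they were 4 and 10, 10 and 18, and 14 and 19, beside 8.01% and 7.75%, 14.4% and 20.5%, and 22.4% and 28.2%. The counts of the single lists are to be read against the same shares.

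Among the other calcineurin and NFAT family genes (5 of 6 tested), few were called. Nfat5, the tonicity-responsive family member that calcineurin does not control, was lower with vinblastine 3 mg/kg at 6 h (372 ± 32.3 against 502 ± 108, log2 -0.40 ± 0.13, limma adjusted p = 0.0175) and with colchicine 2 mg/kg at 24 h (369 ± 47.6 against 502 ± 48.3, log2 -0.43 ± 0.13, limma adjusted p = 0.00373). Rcan3, another member of the inhibitor family, was lower with vinblastine at 6 h (53.4 ± 7.13 against 66.1 ± 9.10), a call lost without the 10 arrays (limma adjusted p = 0.177). Ppp3cc, Nfatc1 and Nfatc2 were called in none of the 6 comparisons. The list's median log2 change ran from -0.24 to -0.03 over the 6, beside -0.01 to 0.01 for all genes.

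Among proteins that anchor, bind or inhibit calcineurin (9 of 13 tested), 2 were higher and none lower with each compound at 6 h, and 2, 2 and 4 higher with 1, 3 and 4 lower at 24 h. Of these, Lmcd1 had the highest log2 changes at 6 h and with colchicine at 24 h. This LIM and cysteine-rich domain protein is reported to bind calcineurin. It went from 739 ± 121 in saline to 3559 ± 2327 with vinblastine 3 mg/kg at 6 h (log2 2.03 ± 0.30, limma adjusted p = 2.54e-06), to 1569 ± 535 with vincristine 1 mg/kg (log2 1.00) and to 2501 ± 1434 with colchicine 2 mg/kg (log2 1.54). At 24 h colchicine gave 4330 ± 1963 against 757 ± 39.5 (log2 2.32 ± 0.30, limma adjusted p = 2.69e-09), while Lmcd1 did not pass with vinblastine or vincristine (limma adjusted p = 0.991 and 0.0696). Myoz2, a sarcomeric protein (calsarcin-1) that tethers and restrains calcineurin, was higher in all 6 comparisons, by log2 changes from 0.19 to 0.47. Cib1, which anchors calcineurin at the sarcolemma, was higher at 24 h with all 3 compounds (log2 0.32, 0.46 and 0.59). Akap6, the nuclear-envelope anchor mAKAP, was lower at 24 h with all 3 (log2 -1.09, -0.85 and -0.93). Akap1, the mitochondrial anchor, was lower with vincristine and colchicine at 24 h (-0.54 and -0.76).

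Upstream, the calmodulin and calcium entry genes (8 of 12 tested) gave 1, 0 and 0 higher calls and no lower ones with vinblastine, vincristine and colchicine at 6 h, and 0, 0 and 1 higher with 2, 4 and 4 lower at 24 h. The lower counts stand beside 4.28%, 18.4% and 25.3% of all genes. Cacna1c, the pore subunit of the L-type calcium channel, fell from 830 ± 101 to 552 ± 47.4 with vincristine (log2 -0.57, limma adjusted p = 0.000211) and to 519 ± 155 with colchicine (-0.70, limma adjusted p = 2.46e-06). Calm2, a calmodulin gene, was lower with vinblastine and vincristine at 24 h (-0.37 and -0.49). Orai1, the store-operated channel, was higher with vinblastine at 6 h (0.57) and with colchicine at 24 h (0.69). Of 6 calmodulin kinases none was called at 6 h, and Camk1 was lower at 24 h with vincristine and colchicine (-0.49 and -0.64). Camk2d was lower with vincristine (-0.30), and Camk2g was higher with colchicine at 24 h (0.18).

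NFAT kinases return NFAT to the cytoplasm. Dyrk1a was higher in all 3 higher-dose groups at 6 h, from 256 ± 27.2 in saline to 412 ± 116, 339 ± 39.5 and 330 ± 37.2 (log2 0.62, 0.38 and 0.35), and with colchicine at 24 h (0.58). Gsk3b was higher with vinblastine at 6 h (0.68) and with vincristine and colchicine at 24 h (0.49 and 0.63). Dyrk2 was lower at 24 h with all 3 compounds (log2 -0.60, -0.91 and -0.95), and Mapk9 with vincristine and colchicine (-0.41 and -0.61). Counts over the 7 kinases were 2, 1 and 1 higher and none lower at 6 h, and 0, 1 and 2 higher with 1, 3 and 3 lower at 24 h, where 5.29%, 12% and 19.3% of all genes were higher and 4.28%, 18.4% and 25.3% lower.

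Of 8 transcription factors that partner NFAT, 3, 1 and 2 were higher and 1, 1 and 1 lower at 6 h, and 0, 1 and 3 higher with 0, 3 and 3 lower at 24 h. The higher ones were AP-1 genes, and the lower ones 2 MEF2 genes and Gata4. Jun was higher in the 3 higher-dose groups at 6 h (log2 1.15, 0.98 and 1.09) and with colchicine at 24 h (0.73). Junb was higher with vinblastine and colchicine at 6 h (1.14 and 0.90) and with vincristine and colchicine at 24 h (0.80 and 1.54). Fos was higher with vinblastine at 6 h (1.64) and colchicine at 24 h (2.15). Mef2c, a muscle transcription factor, was lower in the 3 groups at 6 h (log2 -0.70, -0.48 and -0.46) and with vincristine and colchicine at 24 h (-0.37 and -0.78), and Mef2a in the last 2 of these (-0.57 and -0.81). Gata4, a cardiac transcription factor, was lower in those same 2 comparisons (-0.32 and -0.47).

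The genes reported to respond to calcineurin or NFAT in muscle (6 of 8 tested) moved both ways, with 2, 1 and 1 higher and none lower at 6 h and 2, 3 and 3 higher with 1, 2 and 1 lower at 24 h. Nppb, the B-type natriuretic peptide, rose at 6 h from 3347 ± 1288 to 9448 ± 1397, 8892 ± 3287 and 10302 ± 4444 (log2 1.56, 1.39 and 1.49). At 24 h Nppb was higher with vincristine and colchicine (log2 1.03 and 0.99) and was not called with vinblastine. Nppa, the atrial natriuretic peptide, rose at 24 h from 1823 ± 768 to 4654 ± 999, 7110 ± 2698 and 8393 ± 3485 (log2 1.42, 1.98 and 2.10). Myh7, the slow myosin heavy chain, rose at 24 h with all 3 compounds (log2 1.99, 2.11 and 2.05) and at 6 h with vinblastine (1.13, and 0.74 without the 10 arrays). Adss1, the muscle adenylosuccinate synthase, fell at 24 h with all 3 (-0.85, -1.03 and -1.28). No atrial marker of 3 was called in these comparisons, and their summed intensity at 24 h ran from 248 through a median of 366 to 2347 in saline, and had medians of 291, 235 and 261 in the 3 higher-dose groups. The median log2 change of the list was 0.57, 0.31 and 0.09 at 6 h and 0.24, 0.59 and 0.66 at 24 h, against -0.01 to 0.01 over all genes.

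The genes whose level over the 14 group means was most like that of Rcan1 were Flnc, Ifrd1, Uaca, Cdc42se1 and Tcf21, with Pearson r of 0.99, 0.99, 0.99, 0.98 and 0.98, and of 0.94, 0.94, 0.88, 0.93 and 0.87 over the 82 arrays. For Rcan2 they were Timm21 and Acot13 (r = 1.00 and 0.99 over groups, 0.97 and 0.98 over arrays). The smaller movers had less close companions over the arrays: Pcca and Uqcc2 for Ppp3cb (0.67 and 0.85), Snd1 and Pa2g4 for Ppp3r1 (0.80 for each), and Faim and Cbx6 for Nfatc3 (0.83 and 0.80). Within the 7 genes, the strongest correlation over the 82 arrays was 0.66, between Ppp3ca and Ppp3cb, and it was 0.71 within groups. Rcan1 and Nfatc3 went opposite ways, at -0.63 over the arrays and -0.52 within groups. All these correlations include the 10 set-apart arrays and were not computed without them. Some of those arrays lay far from their group for both Rcan1 and Nfatc3. These coefficients were the highest among 11320 genes by selection or come from shared arrays and groups, and are descriptions.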

How the data were processed

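Heart RNA was hybridised to 82 1-colour Affymetrix arrays, each titled as 1 numbered rat of a group in the labels. The descriptions of 6 arrays end in _2, and the meaning of that ending is unknown here. The authors deposited 1 linear intensity per probe set and array (9.76 to 39497); summarisation and normalization are not given in the sources used here. Array medians lay between 57.6 and 63.3. Of 31099 probe sets, 20832 had 1 gene symbol in the platform annotation, 436 had several and 9831 were not listed; a RefSeq table of GRCr8 changed 0 symbols. Each of 14218 genes took its probe set of highest mean, and 11320 that exceeded the 40th percentile of an array on at least 5 arrays were tested. Values were taken as log2(intensity + 16) and fitted with limma over all 14 groups (68 residual and 4.7 prior degrees of freedom). Each of 25 comparisons was adjusted with the Benjamini-Hochberg method over all genes tested, calls have an adjusted p under 0.05, and intervals are 95%.

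The 7 genes, pathway lists and markers were chosen with earlier results of these data known. Named pathway genes are, per list and higher-dose comparison, at most the 4 called genes with the largest log2 change, and called genes outside that rule (Jun and Gata4 with colchicine at 24 h, Myoz2 with colchicine at 24 h) and uncalled ones (Lmcd1 at 24 h, Ppp3cc, Nfatc1, Nfatc2) were added after their values were seen. Likeness is the highest Pearson r over the 14 group means, for 5 genes with Rcan1 and 2 with each other called gene. The replicate numbers of the titles are not said to pair animals. The fit was tested on simulated data. Alternatives were other pseudocounts, filters and probe set rules, quantile normalization, array weights, the replicate block, smaller fits and arrays left out; leaving out the 10 set-apart arrays was chosen after seeing the data. R 4.3.3, limma 3.58.1, data.table (version 1.17.8), jsonlite 2.0.0, pandas 2.3.3 and matplotlib 3.10.9 were used.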

Additional observations from a re-analysis of the deposited data

Results flagged for a closer look

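In 98 sets of arrays (7 genes in 14 groups) 14 single readings lay far from the rest of their group on the linear scale. The rule's nominal rate is about 1 in 20 groups (5%) for normally distributed values. The 7 genes share the same arrays, and some arrays are counted for more than 1 gene, so no excess over that rate was tested. Of these, 10 readings are on arrays nearer another group.

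For Rcan1, replicate 6 of vinblastine 0.5 mg/kg at 6 h read 6202 (next 2336), replicate 5 at 24 h 5826 (next 2636), and replicate 6 of colchicine 0.2 mg/kg at 24 h 6511 (next 2365). Replicate 1 of vincristine 0.1 mg/kg at 6 h read 2285 (next 1601). Replicate 4 of colchicine 2 mg/kg at 6 h was low for Rcan1, at 1427 (next 5350), and high for Nfatc3, at 391 (next 284). For Rcan2, replicate 1 of vinblastine 3 mg/kg at 6 h read 1203 (next 3806) and replicate 1 of colchicine 2 mg/kg at 24 h 4329 (next 1706). For Ppp3cb, replicate 5 of vincristine 1 mg/kg at 6 h read 1124 (next 1029). For Ppp3r1, replicate 5 of vinblastine 0.5 mg/kg at 6 h read 959 (next 1067), replicate 1 of vinblastine 3 mg/kg at 6 h 2049 (next 1110) and replicate 6 of colchicine 0.2 mg/kg at 6 h 1280.5 (next 1030). Replicate 5 of vinblastine 0.5 mg/kg at 24 h read 264 for Nfatc3 (next 355), and replicate 6 of vinblastine 3 mg/kg at 24 h 149 for Nfatc4 (next 138).

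The change against saline differed between 24 h and 6 h in 5 cases by the limma test of that difference: -1.31 for Rcan1 with vinblastine 3 mg/kg, -1.23 and -1.64 for Rcan2 with vincristine 1 mg/kg and colchicine 2 mg/kg, and -0.49 and -0.36 for Ppp3cb with the same 2, on the log2 scale.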

How the results depend on the processing

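Of 26 called changes of the 7 genes, 20 kept their call in every alternative run and 6 lost it in at least 1; none reversed. Of the changes not called, 71 values in other settings and 105 with 1 array left out had the other sign. Without the 10 set-apart arrays the number of the 7 genes called at the higher doses was 2 with each compound at 6 h (1 with all arrays) and 3 with vinblastine at 24 h (0 with all arrays), while the share called over all genes was 15.8%, 12.3% and 19.3% at 6 h and 15.8% with vinblastine at 24 h (23.3%, 3.3%, 9.27% and 9.58% with all arrays), and the totals were 16 between doses (10) and 8 between times (5). With array weights the counts were 2 for vinblastine and colchicine at 6 h, 3 for vinblastine at 24 h, 1 for the lower doses (0) and 9 between times. With quantile normalization they were 2 for vinblastine and colchicine at 6 h and 1 for vinblastine at 24 h. For vinblastine at 24 h, the mean of all probe sets gave 2, a fit of the compared groups alone 2 and leaving out the 6 arrays ending in _2 gave 1. Leaving out 1 array at a time, the counts ran from 1 to 2 for vinblastine and colchicine and from 0 to 1 for vincristine at 6 h. They ran from 0 to 1 for vinblastine, 3 to 3 for vincristine and 5 to 6 for colchicine at 24 h, from 9 to 14 between doses, 4 to 6 between times and 0 to 0 for the lower doses and for saline. The vincristine count at 6 h fell to 0 without its replicate 4. The colchicine count at 6 h was 2 without its replicate 4 or saline replicate 3, and the vinblastine count at 6 h was 2 without saline replicate 3, 4 or 5 or its own replicate 1, 2, 3, 5 or 6. The vinblastine count at 24 h was 1 without saline replicate 1 or 6 or its own replicate 1 or 4. Outside the main fit and the one without the 10 arrays, the share called over all genes was not recorded. Whether the counts in those settings follow that share is therefore not known. The cause was not tested.

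Arrays with the same replicate number hardly deviated together (mean correlation 0.023 over 521 pairs against -0.0051 over 2600 others). The replicate block gave 1 call with vinblastine at 24 h (Ppp3cb) and changed no other count by over 1.5 times. Values near background understate changes, the intensities keep no count depth, and 5 or 6 animals a group limit what small changes could pass.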
